A study of Mus musculus with 8 samples.

Results

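The carboxylesterases described here are 10 genes of the Ces1, Ces2 and Ces3 families, *Ces1b*, *Ces1c*, *Ces1d*, *Ces1e*, *Ces1f*, *Ces1g*, *Ces2a*, *Ces2c*, *Ces2e* and *Ces3a*. They were taken by gene symbol from the 25010 genes of the liver RNA-Seq table, which holds 19 carboxylesterase genes in all. RNA came from the left liver lobes of 2 wild-type (WT) mice and 2 mice lacking both liver X receptors, LXRα and LXRβ (LXRDKO), with 1 library per mouse. The mice were 8 weeks old, on a C57BL/6 background and were fasted for 4 to 6 h before they were killed. The deletion was in the whole body, so the receptors were missing from every liver cell type and from every other organ, and no group received a drug. The libraries held 55772659 to 72842744 reads on genes. All 4 livers carried transcripts of the Y-linked gene *Ddx3y*, at 4242 to 4916 normalized counts. *Nr1h3*, which encodes LXRα, was at 5785 and 5322 normalized counts in WT livers and 1712 and 1826 in LXRDKO livers.

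Carboxylesterases are serine hydrolases of the endoplasmic reticulum that split ester and amide bonds in drugs, toxicants and lipids, and the liver is their main site of expression. Several Ces1 and Ces2 enzymes also hydrolyze acylglycerols or cholesteryl esters, which places them between stored liver lipid, very-low-density lipoprotein (VLDL) assembly and fatty acid supply. Mice carry many more of these genes than humans, arrayed in tandem, and LXRs are nuclear receptors that bind oxysterols and control cholesterol and lipid genes.

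Levels are given as normalized counts, the reads on a gene divided by 1 size factor per library. Differences are log2 fold changes, LXRDKO minus WT, on the log2(normalized count + 1) scale, and a gene was called at a Benjamini-Hochberg adjusted P value under 0.05 from limma over the 15578 genes that averaged 10 or more normalized counts across the livers. All 10 carboxylesterases passed that filter. The tests rest on 2 mice a group, and limma draws the error of each gene towards that of genes at a similar level. Its standard errors (SE), intervals and P values therefore do not measure the spread between those 2 mice alone. An exact permutation test of 2 against 2 livers cannot go below P = 0.333.

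A run of neighboring Ces1 genes, 3 in all, were lower in LXRDKO livers, *Ces1e* by 2.72-fold, *Ces1f* by 1.87-fold and *Ces1d* by 1.77-fold. Only *Ces1e* was called by limma, 1 of 10 carboxylesterases lower and 0 higher, where 0.186% of all genes tested were called lower and 0.135% higher (0.321% in either direction). edgeR on the recovered reads also called only *Ces1e* among the 10, where it called 0.191% of all genes lower and 0.121% higher (0.311% in either direction). DESeq2 on the same reads called all 3 lower and 0 higher, where it called 2.03% of all genes lower and 1.56% higher (3.59% in either direction). At an unadjusted limma P value under 0.05, 3 of the 10 were lower and 1, *Ces2e*, was higher, and at that level 13.3% of all genes passed in either direction and 7.5% were lower. The genotypes did not overlap for 6 of the 10 genes, of which 4 were lower and 2 higher in LXRDKO livers, where 23.0% and 21.7% of all genes were lower and higher without overlap. Over the 10 genes the median log2 fold change was -0.20, with 6 below 0, and over all genes tested it was 0.00, with 50.9% below 0. In these whole-liver samples, fewer cells of a type and less RNA per cell cannot be told apart.

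**Figure D1:**
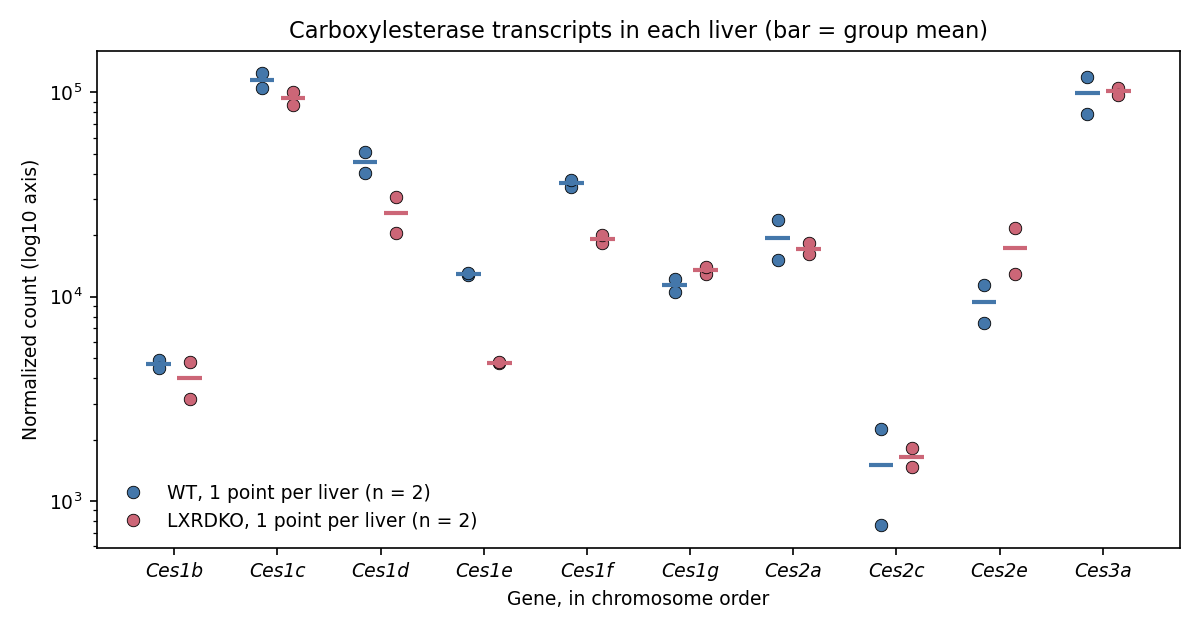
Normalized count of each carboxylesterase in each of the 4 livers on a log10 axis, with WT livers in blue, LXRDKO livers in red and a bar at each group mean (n = 2). The 2 livers of a genotype nearly coincide for *Ces1e*, at 12752 and 13020.4 in WT and 4715 and 4776 in LXRDKO, whereas the WT livers spread from 762 to 2245 for *Ces2c*.

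*Ces1e*, known as egasyn, holds β-glucuronidase in the endoplasmic reticulum. It was at 12752 and 13020.4 normalized counts in WT livers and at 4715 and 4776 in LXRDKO livers. The groups were far apart, and the livers within a genotype differed by at most 1.02-fold. The log2 fold change was -1.44 ± 0.08 (SE, n = 2 per group), with a 95% interval of -1.65 to -1.23, and the mean level fell by 63.2%. The adjusted P value was 0.0147 by limma, where *Ces1e* took rank 4 among all genes by P value, 0.0178 by edgeR and 2.65e-27 by DESeq2. The call was lost without LXRDKO replicate 1 (limma adjusted P = 0.108), without LXRDKO replicate 2 (limma adjusted P = 0.0702) and when the limma prior took no account of expression level (limma adjusted P = 0.212), although the fold change stayed between -1.46 and -1.43 when any 1 liver was left out.

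*Ces1f*, a relative of triacylglycerol hydrolase, was at 34319 and 37299 normalized counts in WT livers and at 18244 and 20153 in LXRDKO livers. The LXRDKO livers were again the lower pair, with little spread inside either genotype. Its log2 fold change was -0.90 ± 0.11 (SE), with a 95% interval of -1.18 to -0.62. The adjusted P value was 0.0615 by limma, 0.0751 by edgeR and 1.09e-08 by DESeq2. Without WT replicate 1 or WT replicate 2 the limma adjusted P value was 0.0241 or 0.0467, so its call turned on which livers were used.

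*Ces1d* encodes triacylglycerol hydrolase, an enzyme that mobilizes stored triglyceride for VLDL assembly. It was at 40211 and 50815 normalized counts in WT livers and at 20455 and 30881 in LXRDKO livers. The groups did not overlap, but the 2 LXRDKO livers stood 1.51-fold apart. The log2 fold change was -0.85 ± 0.23 (SE), with a 95% interval of -1.41 to -0.28, an adjusted P value of 0.229 by limma and 0.00815 by DESeq2. Leaving out 1 liver at a time gave -1.14 to -0.55, the smallest difference without LXRDKO replicate 1.

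The other Ces1 genes did not pass the test by limma, edgeR or DESeq2. *Ces1c*, the esterase secreted into mouse plasma, was at 105058.5 and 123805 normalized counts in WT livers and at 100064 and 86881 in LXRDKO livers. The LXRDKO livers were the lower pair, with a gap that was small beside the level, and the log2 fold change was -0.29 ± 0.16 (SE, limma adjusted P = 0.531). *Ces1b*, the gene that shares most transcript sequence with *Ces1c*, was at 4883 and 4485 normalized counts in WT livers and at 4811 and 3161 in LXRDKO livers. One LXRDKO liver fell inside the WT range for *Ces1b*, and the log2 fold change was -0.26 ± 0.20 (SE, limma adjusted P = 0.652). *Ces1g*, a hydrolase of triglyceride and cholesteryl ester, was at 12225 and 10595 normalized counts in WT livers and at 12964 and 13926 in LXRDKO livers. Both LXRDKO values were the higher ones, with a log2 fold change of 0.24 ± 0.11 (SE, limma adjusted P = 0.424) and a 95% interval of -0.03 to 0.51.

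The Ces2 enzymes favor substrates with a bulky alcohol group, and several act on acylglycerols. *Ces2e* was at 11432 and 7473 normalized counts in WT livers and at 12941 and 21765 in LXRDKO livers. Both LXRDKO livers were above both WT livers, and each genotype was widely spread. The log2 fold change was 0.86 ± 0.30 (SE), with a 95% interval of 0.11 to 1.61 and an adjusted P value of 0.319 by limma and 0.501 by DESeq2. It was 0.49 without LXRDKO replicate 2, 0.55 without WT replicate 2, 1.17 without WT replicate 1 and 1.24 without LXRDKO replicate 1. *Ces2a* was at 15182 and 23771 normalized counts in WT livers and at 18294 and 16126 in LXRDKO livers. The LXRDKO livers fell inside the WT range, with a log2 fold change of -0.15 ± 0.22 (SE, limma adjusted P = 0.84).

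*Ces2c* was the lowest of the 10, at 2245 and 762 normalized counts in WT livers and at 1474 and 1820.2 in LXRDKO livers. The WT livers differed 2.95-fold and enclosed both LXRDKO livers. Its log2 fold change of 0.32 ± 0.48 (SE, limma adjusted P = 0.838) had a 95% interval of -0.87 to 1.52. It was 1.10 without WT replicate 1 (limma adjusted P = 0.0376) and -0.45 without WT replicate 2 (limma adjusted P = 0.309). *Ces3a*, a liver microsomal esterase, was at 119265 and 78372 normalized counts in WT livers and at 105331 and 97058 in LXRDKO livers. Here too the WT pair enclosed the LXRDKO pair, and the log2 fold change was 0.06 ± 0.23 (SE, limma adjusted P = 0.94) with a 95% interval of -0.50 to 0.63.

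Per kilobase of exon, the carboxylesterases covered a wide range of levels. In WT livers the order ran from *Ces1c* at 49260.4 ± 5706 normalized counts per kilobase (SD, n = 2) and *Ces3a* at 37617 ± 11007 through *Ces1d*, *Ces1f*, *Ces2a*, *Ces1e*, *Ces1g*, *Ces2e* and *Ces1b* to *Ces2c* at 654 ± 456. *Ces1c* and *Ces3a* overlapped, and each of the other neighbors in that order was apart in both WT livers. In LXRDKO livers *Ces1e* moved from place 6 to place 8, with 2168 ± 19.7 normalized counts per kilobase against 5887 ± 86.7 in WT livers, and its range there overlapped that of *Ces1b*. *Ces1f* moved from place 4 to place 6 and *Ces2e* from place 8 to place 5. In LXRDKO livers each pair of neighbors in the run *Ces2a*, *Ces2e*, *Ces1f* and *Ces1g* overlapped, as *Ces1c* and *Ces3a* did. The order of the means over all 4 livers was the same when the length of the longest transcript was used.

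The 10 genes together took 0.562% and 0.567% of the reads on genes in WT livers and 0.495% and 0.492% in LXRDKO livers. Their summed normalized counts were 353985 ± 5073 in WT livers and 297921 ± 1942 in LXRDKO livers (SD, n = 2), a difference of -15.8%. *Ces1d*, *Ces1e* and *Ces1f* summed to 94209 ± 9796 normalized counts in WT livers and 49612 ± 8766 in LXRDKO livers. Of the per-kilobase total of the 10 genes, these 3 made up 23.2% and 27.3% in WT livers and 13.6% and 18.0% in LXRDKO livers. The 3 were grouped after their values were seen, so these sums carry no test.

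**Figure D2:**
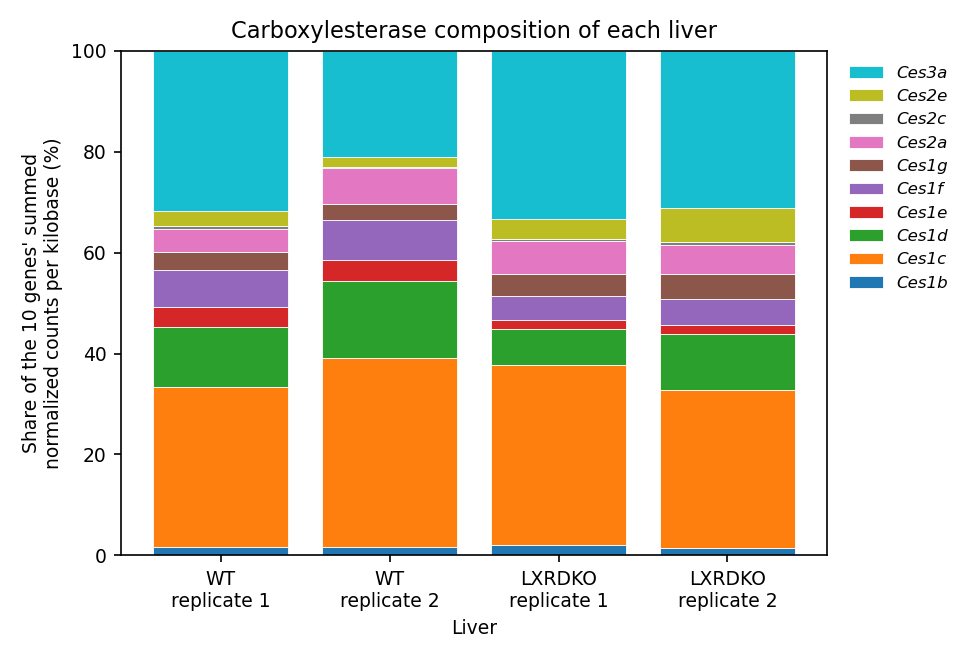
Share of each carboxylesterase in the summed normalized counts per kilobase of the 10 genes, 1 stacked bar for each liver, from 0 to 100%. *Ces1d*, *Ces1e* and *Ces1f* (green, red and purple) narrow from 23.2% and 27.3% in WT to 13.6% and 18.0% in LXRDKO, while *Ces1c* and *Ces3a* take the widest bands in every liver.

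Ratios between Ces1 genes in the same library do not depend on the size factor. *Ces1e* relative to *Ces1g* was 1.04 and 1.23 in WT livers and 0.364 and 0.343 in LXRDKO livers. *Ces1f* relative to *Ces1g* was 2.81 and 3.52 in WT livers and 1.41 and 1.45 in LXRDKO livers. Within the lower trio, *Ces1e* relative to *Ces1f* was 0.372 and 0.349 in WT livers and 0.258 and 0.237 in LXRDKO livers. In these ratios the genotypes did not overlap, whereas *Ces1d* relative to *Ces1f*, at 1.17 and 1.36 in WT livers and 1.12 and 1.53 in LXRDKO livers, overlapped. *Ces1g* was higher and *Ces1e* and *Ces1f* were lower in both LXRDKO livers, so the ratios to *Ces1g* could not overlap. Relative to *Ces1c*, *Ces1d* was 0.383 and 0.410 in WT livers and 0.204 and 0.355 in LXRDKO livers. *Ces1f* relative to *Ces1c* was 0.327 and 0.301 in WT livers and 0.182 and 0.232 in LXRDKO livers. The ratios carry no test.

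All 10 genes lie on chromosome 8 (GRCm38) and are protein coding. The Ces1 genes lie on the minus strand of one cluster, and the Ces2 and Ces3 genes on the plus strand of another. *Ces1d* spans chr8:93166068-93197838, *Ces1e* chr8:93201218-93229619 and *Ces1f* chr8:93256236-93279747, with *Ces1c* (chr8:93099015-93131283) on one side and *Ces1g* (chr8:93302369-93337308) on the other. A pair of minor annotated genes within this stretch were also low in both LXRDKO livers. *Gm45909*, annotated inside the span of *Ces1d* on the same strand without exon overlap, had a log2 fold change of -1.26 (limma adjusted P = 0.17, DESeq2 adjusted P = 0.0024). Whether its reads come from *Ces1d* RNA was not tested, so it may not be a separate gene. *Gm45727*, an unprocessed pseudogene between *Ces1e* and *Ces1f*, had a log2 fold change of -1.88 ± 0.50 (SE, limma adjusted P = 0.229, DESeq2 adjusted P = 0.0304). It was at 129 and 125 normalized counts in WT livers and 19.9 and 56.8 in LXRDKO livers. A low minor gene was not particular to this stretch, since *Gm8798*, a pseudogene in the Ces2 and Ces3 cluster, was at 78.7 and 111 normalized counts in WT livers and 27.5 and 30.0 in LXRDKO livers (log2 fold change -1.67, limma adjusted P = 0.129, DESeq2 adjusted P = 0.0109). These minor genes were named after their values were seen. Within 500 kb outside the Ces1 cluster, 3 of 5 genes were tested, with log2 fold changes of -0.30 to -0.01 and 0 called by limma or DESeq2. Around the Ces2 and Ces3 cluster 33 of 47 were tested, and limma called 0 and DESeq2 1, *Cmtm4* (-0.54, adjusted P = 0.00709), which was also named after its values were seen.

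**Figure D3:**
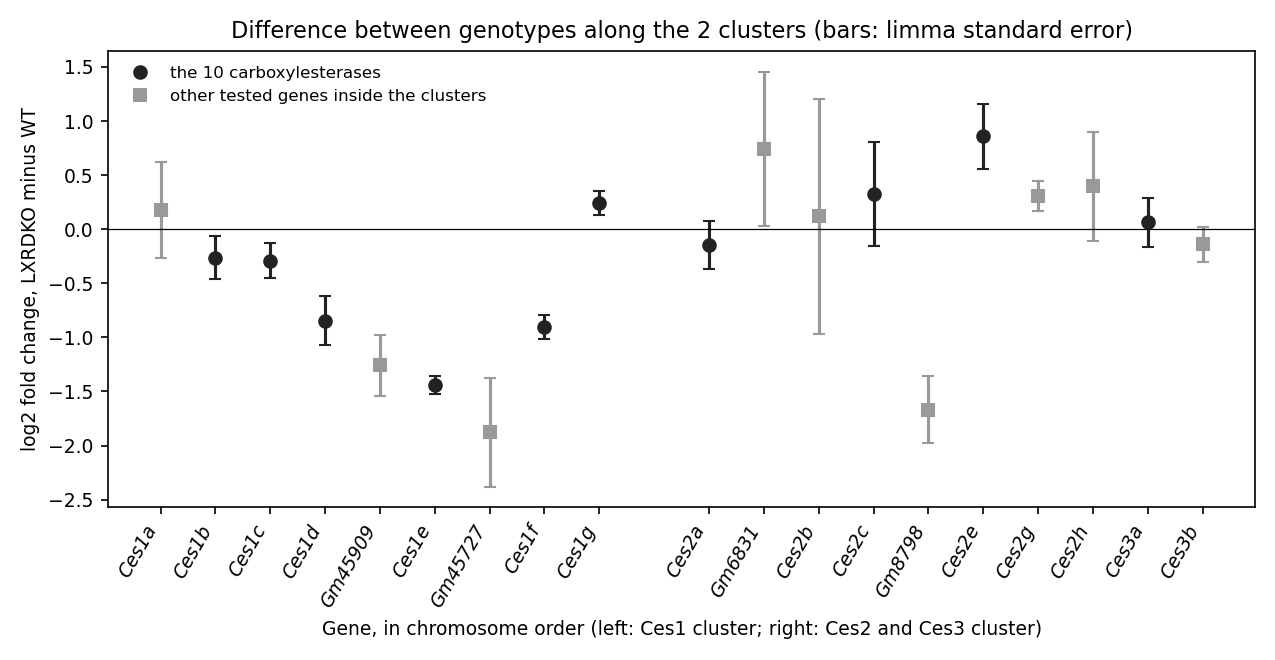
Log2 fold change (LXRDKO minus WT, ± limma standard error) of each tested gene inside the 2 carboxylesterase clusters in chromosome order, with the 10 carboxylesterases as black circles and other genes as gray squares. The stretch from *Ces1d* to *Ces1f* lies between -1.88 (the pseudogene *Gm45727*) and -0.85 (*Ces1d*). The flanking *Ces1c* and *Ces1g* are at -0.29 and 0.24, and the pseudogene *Gm8798* in the other cluster is at -1.67.

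Upstream sequence is shown for *Ces1e*, the gene called by limma, and for *Ces1c*, a neighbor on the same strand that was not. The windows are the 250 bases before the annotated start (RefSeq, GRCm38.p6, minus strand), at chr8:93229620-93229869 for *Ces1e* and chr8:93131284-93131533 for *Ces1c*. They are written 5′ to 3′, and capitals mark a CCAAT box on either strand, which reads ATTGG on the printed strand.
Ces1e: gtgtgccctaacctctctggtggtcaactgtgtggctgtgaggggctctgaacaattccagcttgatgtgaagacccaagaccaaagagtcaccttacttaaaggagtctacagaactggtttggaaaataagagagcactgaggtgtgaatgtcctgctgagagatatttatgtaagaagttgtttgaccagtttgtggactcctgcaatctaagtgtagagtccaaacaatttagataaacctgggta
Ces1c: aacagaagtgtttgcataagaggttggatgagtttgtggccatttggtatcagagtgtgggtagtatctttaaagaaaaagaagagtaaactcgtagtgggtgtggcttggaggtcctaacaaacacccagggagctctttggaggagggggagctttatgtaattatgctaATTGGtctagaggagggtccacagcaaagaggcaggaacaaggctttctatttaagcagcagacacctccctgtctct
The *Ces1c* window holds 1 CCAAT box and the *Ces1e* window none. RefSeq promoter entries matched 7 of the 10 genes, with 8 windows because *Ces1b* had a pair. *Ces1d*, *Ces1f* and *Ces3a* had no entry. CCAAT was found on either strand in 5 of the 8 windows and in 33.9% of the 250-base windows of all 32851 promoters. The nuclear receptor half-site AGGTCA was found in 1 of the 8, that of *Ces2a*, and in 14.0% of all promoters. The direct repeat of AGGTCA with 4 bases between the copies (DR4), the form that LXRs bind, was found in 0 of the 8 and in 0.0152% of all promoters, and the repeat with 1 base between (DR1) in 0 and 0.0335%. Each repeat contains the half-site. GTTAAT followed by 1 base and its own reverse complement, the HNF1 palindrome, was found in 0 of the 8 and in 0.00913% of all promoters, and TATAAA in 1 of the 8, that of *Ces1g*, and in 12.4%. All motifs were sought on both strands, and no match says only that these letters are not in these windows. Identity in global alignments of the 250-base windows counted gaps as differences. The 2 windows of *Ces1b* overlap, with 173 of 173 aligned bases identical, and differ in where they start. *Ces1c* had 76.9% identity with 1 of them. With the other it had 44.8% because of gaps, and 152 of 161 aligned bases were identical. *Ces2a* and *Ces2c* had 67.1%. *Ces1e* had 48.5% with *Ces1c* and 53.6% with *Ces2e*, a gene of the other cluster.

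Tandem copies can share reads of 50 bases, and how reads with several matches were counted is not given in the sources used here. The share of a gene's 50-base transcript words that also occur in a transcript of another gene was 2.97% for *Ces1e*, 1.08% for *Ces1d*, 0.903% for *Ces1f* and 1.67% for *Ces1g*. It was 11.6% for *Ces1b* and 13.0% for *Ces1c*, mostly with each other, and 3.30% for *Ces2e*. The share was 17.3% for *Ces2a*, 25.6% for *Ces3a* (all of it with *Ces3b*) and 36.1% for *Ces2c* (mostly with the pseudogene *Ces2d-ps*), so the levels of these 3 are less certain. No exon of the 10 genes overlapped an exon of another gene, except for 1 base of *Ces3a* and *Gm45724* on opposite strands.

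**Figure D4:**
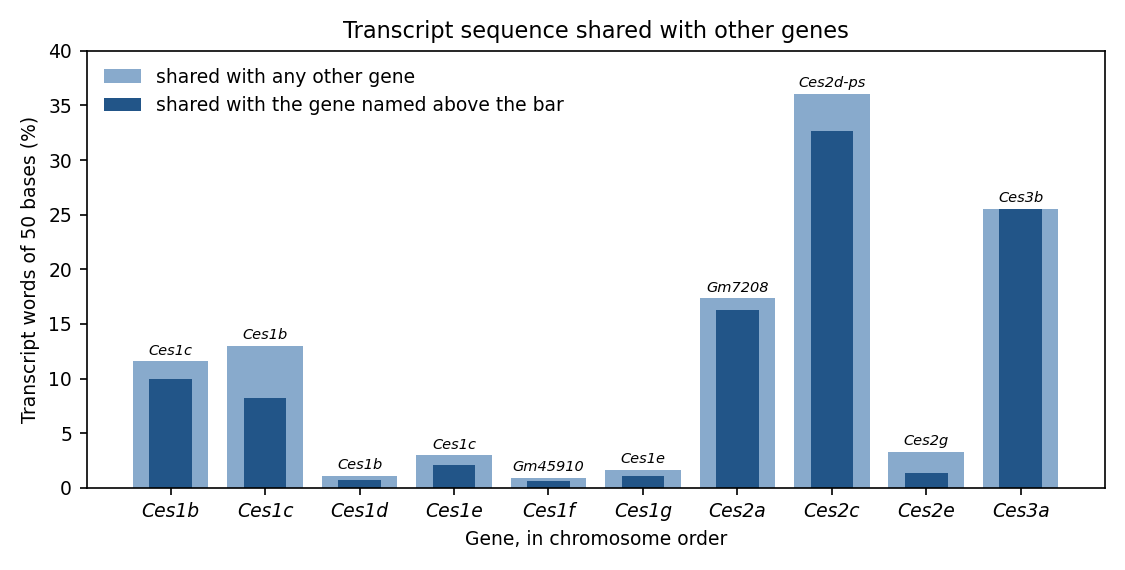
Percent of each carboxylesterase's 50-base transcript words that occur in a transcript of any other gene (light bars) and of the single gene that shares most, named above each bar (dark bars). *Ces1d*, *Ces1e*, *Ces1f* and *Ces1g* lie at or below 2.97%, and *Ces2c* reaches 36.1%.

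Of the other carboxylesterase genes, 9 were in the table and 6 were tested, of which limma, edgeR and DESeq2 called 0. At an unadjusted limma P value under 0.05, 0 of the 6 passed. *Ces3b*, the closest copy of *Ces3a*, was at 29457 and 23414 normalized counts in WT livers and at 26109 and 21724 in LXRDKO livers, and the genotypes overlapped. *Ces2g* was at 2935 and 2299 normalized counts in WT livers and at 3073 and 3346 in LXRDKO livers, a log2 fold change of 0.30 (limma adjusted P = 0.425). *Ces4a* was at 383 normalized counts in WT replicate 1 and at 108, 98.7 and 83.6 in the other 3 livers, so that 1 liver stood apart, and its log2 fold change was -1.15 (limma adjusted P = 0.471). *Ces1a*, *Ces2b* and *Ces2h* were at or below 106 normalized counts in every liver, and *Ces1h*, *Ces2d-ps* and *Ces2f* at or below 8.49. *Ces5a* was not analysed here.

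By Euclidean distance between log2 levels centered per gene over the 4 livers, the carboxylesterase closest to *Ces1e* was *Ces1f* (distance 0.552), and *Ces1f* and *Ces1d* were each other's closest (0.358). The closest to *Ces1g* was *Ces2g* (0.122), that to both *Ces3a* (0.301) and *Ces1b* (0.308) was *Ces3b*, and that to both *Ces2c* (0.332) and *Ces2e* (0.623) was *Ces2h*. *Ces1c* and *Ces2a* were each other's closest (0.325). Among all other genes tested, the 5 nearest to *Ces1e* were *Dysf* (0.0929), *Gm2788* (0.107), *Ppm1j* (0.115), *Tspan18* (0.162) and *Rasgrp3* (0.172). These 5 were picked as the smallest of 15577 distances, each over only 4 livers, and no distance carries a test. Some rest on few reads, with 6 for *Ppm1j* in each LXRDKO library and 18 to 35 for *Ces2h* in a library. *Ces3a* shares 25.6% of its 50-base words with *Ces3b*, and the part of shared reads in their closeness was not tested.

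Genes that work beside the carboxylesterases were described from lists by their counts. Over all 15578 genes tested, 50.9% were below 0, 1169 (7.5%) were lower and 899 higher at an unadjusted limma P value under 0.05, and DESeq2 called 2.03% lower and 1.56% higher. Of 13 other neutral lipid hydrolases and cofactors, 11 were below 0, with a median log2 fold change of -0.41. Limma called 0 of them, 6 were lower at an unadjusted P value under 0.05, and DESeq2 called 3 lower. These were *Lpl*, the lipoprotein lipase (-2.48, DESeq2 adjusted P = 0.00204), *Lipa*, the lysosomal acid lipase (-0.69, DESeq2 adjusted P = 0.000588), and *Mgll*, the monoacylglycerol lipase (-0.56, DESeq2 adjusted P = 0.0157). Of 13 other drug and xenobiotic esterases and related hydrolases, limma and DESeq2 called 0, and the median was -0.07. At an unadjusted limma P value under 0.05, 2 passed, *Aadac*, an arylacetamide deacetylase, at -0.28 and *Ephx1*, the microsomal epoxide hydrolase, at 0.47. *Aadac* is in both this list and that of neutral lipid hydrolases, and is counted in each, as are the genes that other lists share. Of 11 VLDL assembly genes, limma called 0, and 2 were lower at an unadjusted P value under 0.05. DESeq2 called *Mttp*, the lipid transfer protein that loads apolipoprotein B, lower (-0.48, adjusted P = 0.0231), and the median of these 11 genes was -0.07.

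Of 10 nuclear receptors and factors known to control carboxylesterases, limma called 0, and 2 passed an unadjusted P value under 0.05. DESeq2 called these 2, the fatty acid receptor *Ppara* lower (-0.58, adjusted P = 0.0282) and *Hnf4a* higher (0.60, adjusted P = 0.0115). Among 15 target genes of the xenobiotic receptors, 12 were above 0, with a median of 0.36. *Cyp2b10*, the target most used as a readout of the receptor CAR, rose from 348 and 499 normalized counts in WT livers to 1825 and 2099 in LXRDKO livers (log2 fold change 2.23, limma adjusted P = 0.0280), and it was the 1 gene of that list called by limma, where 0.135% of all genes were called higher. At an unadjusted P value under 0.05, 4 of the 15 were higher and 1 lower. DESeq2 called 3 higher, *Cyp2b10*, the organic anion transporter *Slco1a4* (1.64, adjusted P = 9.72e-08) and the sulfotransferase *Sult1d1* (0.80, adjusted P = 4.01e-05). Of 14 PPARα target genes, 13 were below 0, with a median of -0.23, limma called 0 and 3 were lower at an unadjusted P value under 0.05. Among those that DESeq2 called lower was *Vnn1*, a pantetheinase (-0.87, adjusted P = 0.00792).

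Markers of liver cell types were counted beside these genes. Of 10 hepatocyte markers, 5 were on each side of 0 (median 0.00), limma called 0, and 2 were higher at an unadjusted P value under 0.05. *Hnf4a*, 1 of these 2, is the same gene as in the list of factors above and is counted in both. Without overlap of the genotypes, 4 were higher and 2 lower, where 21.7% and 23.0% of all genes were. Their summed level was 6543885 to 7850372 normalized counts over the 4 livers, with the genotypes overlapping. Most of that sum was *Alb*, named for its level, at 4644569 to 5959085 normalized counts. Of 12 Kupffer cell markers, 10 were below 0 (median -2.62), and limma called 4 lower, where it called 0.186% of all genes lower. *Clec4f*, which defines these resident macrophages, was among the 4. The 2 above 0, *Csf1r* (0.05) and *C1qb* (0.06), overlapped between genotypes and were named after their values were seen. The summed level of the 12 markers was 16589 and 18201 normalized counts in WT livers and 11145 and 6553 in LXRDKO livers. Another of them, *Timd4*, was listed at 0 in LXRDKO replicate 2. Of 10 sinusoidal endothelial markers 9 were below 0 (median -0.45) and limma called 1, *Kdr*, lower (-1.17, limma adjusted P = 0.0498). At an unadjusted P value under 0.05, 6 of them were lower and 0 higher, where 7.5% of all genes were lower. Without overlap of the genotypes 7 were lower and 0 higher, where 23.0% and 21.7% of all genes were. All 10 stellate cell markers (median 0.42) and all 7 tested cholangiocyte markers (median 0.82) were above 0, of which limma called 0, while 5 and 3 passed an unadjusted P value under 0.05, as did 13.3% of all genes. DESeq2 called 2 hepatocyte, 2 stellate cell and 1 cholangiocyte markers higher, and 7 Kupffer cell and 1 endothelial markers lower. Of all genes it called 1.56% higher and 2.03% lower. The part of these cell types in the carboxylesterase differences was not tested. The adipocyte marker *Adipoq*, named for its low level, had 0 to 1.70 normalized counts in each liver. Limma called 0 of the 4 adipocyte, 2 pancreatic acinar and 3 intestinal markers tested, of which 1, 0 and 1 passed an unadjusted P value under 0.05. DESeq2 called 0, 0 and 1, the intestinal marker being lower. Of the 4 adipocyte markers 2 were above 0 and 2 below. The 1 that passed was *Fabp4*, at 322 and 463 normalized counts in WT livers and 581 and 543 in LXRDKO livers. Of 11 sex-biased liver genes tested limma called 0, and 3 passed an unadjusted P value under 0.05, 2 of them lower and 1 higher. DESeq2 called 2 lower, *Cyp4a12b* (-1.05, adjusted P = 2.89e-05) and *Cyp4a12a* (-0.75, adjusted P = 0.00481), and 0 higher. Of 4 X- and Y-linked sex marker genes tested 0 were called, and 0 passed an unadjusted P value under 0.05.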

How the data were processed

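RNA-Seq of the left liver lobe of 2 WT and 2 LXRDKO mice was used. ATAC-Seq libraries of the same series were not analysed here. Per the methods and labels, polyadenylated RNA was prepared with a stranded kit, sequenced as single-end reads of 50 bases, aligned to mm10 with STAR 2.6.0c and normalized with DESeq2. The counting tool, its strand setting and the annotation release are not given in the sources used here. The authors deposited gene counts divided by size factors (unit signal, a normalized read count). Of the values, 100% were whole multiples of 1 read in their library within 0.01 read, so the reads were recovered. Depth was 55772659 to 72842744 reads a library, and the fewest reads on any of the 10 carboxylesterases in a library were 898.

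Log2(normalized count + 1) values of genes with a mean of at least 10 were fitted with limma 3.58.1 (eBayes with trend, R 4.3.3), WT against LXRDKO with no covariate, with Benjamini-Hochberg adjustment over all 15578 genes. edgeR 4.0.16 and DESeq2 1.42.0 on the recovered reads, pseudocounts of 0.5 and 8, a mean of at least 50, no filter, other scalings, a limma prior without trend, a replicate block and leaving out each liver were alternatives. The fits were tested on simulated data. Gene models came from GENCODE M21 (24987 of 25010 IDs matched), and upstream sequences from RefSeq.

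Named were the 10 members, *Nr1h3* and *Nr1h2*, the other carboxylesterases, from each list up to 3 genes with the smallest P value and any gene called, and nearest profiles; other names are marked, and 1 gene that the rule names is not reported here. Members and lists were chosen with earlier results of these data known.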

Additional observations from a re-analysis of the deposited data

How the results depend on the processing

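Limma called 50 genes in all. The number was 25 with a mean of at least 50, 1 without the trend, 567 by DESeq2 and 2 to 262 when 1 liver was left out (262 without WT replicate 1, 157 without WT replicate 2, 2 without LXRDKO replicate 1 and 8 without LXRDKO replicate 2). Of the 10 carboxylesterases, 1 was called lower, against 0 without the trend, 3 by DESeq2 and 0 to 2 when 1 liver was left out (2 without either WT liver, 0 without either LXRDKO liver). None was called higher, 0 to 1 when 1 liver was left out, where the 1 was *Ces2c* without WT replicate 1. The median of the 10 was -0.31 to -0.01 when 1 liver was left out. Differences that were not called turned sign for *Ces1b* without LXRDKO replicate 2 (range -0.57 to 0.040 over the livers left out) and, without WT replicate 2, for *Ces2a* (-0.47 to 0.18), *Ces2c* (-0.45 to 1.10) and *Ces3a* (-0.24 to 0.37). The cause of these changes was not tested, except that leaving out a liver leaves 1 in its group, assumed to vary like the rest. A fit with the replicate number as a block called 90 genes in all, and *Ces1e* (adjusted P = 0.0138) as the 1 carboxylesterase. The labels do not say what the numbers stand for. Over all genes tested, deviations from the group means had a correlation of 0.0031 between same-numbered livers. That value cannot speak for a subset of genes, and whether same-numbered livers were handled together was not tested. No other alternative changed a count of called carboxylesterases. Depth limited none of the 10, with 898 or more reads on each in every library.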
